A study of Homo sapiens with 4 samples.

Results

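The genes described here encode the enzymes that build cholesterol and fatty acids, with the proteins that control them. They were taken as 36 gene symbols, all of which were found among the 61471 gene names of each count table, and all 36 passed the filter on low counts. RNA came from MDA-MB-231 cells, an established human cell line from a triple-negative breast tumour, grown in medium with fetal bovine serum. EGFP negative cells were labelled as having more extravasation, in which tumour cells leave a blood vessel, and the EGFP positive cells they were set against were labelled as lacking that increase. Each group had 2 libraries. Both groups were labelled wild type and carried the same constructs, H2B-EGFP (a histone fused to a green fluorescent protein) and CMV-RFP (a red one). The labels do not say whether a group was 1 clone, how EGFP status was scored or whether its libraries were separate cultures, so p-values reflect only how these libraries varied, possibly for technical reasons. EGFP status and extravasation changed together and cannot be told apart.

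Cells make cholesterol from acetyl-CoA through mevalonate and squalene, and make fatty acids from the same precursor. Both routes are driven by the SREBP transcription factors, which sit in the endoplasmic reticulum as inactive precursors. The escort SCAP carries them to the Golgi for cleavage when sterols are low, and the INSIG proteins hold SCAP back when sterols are high. SREBP2 is known mainly for sterol genes and SREBP1 mainly for fatty acid genes, and liver X receptors, which sense oxidised sterols, raise SREBF1 and SCD.

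Library totals were 12635576 and 11620076 counts in EGFP negative libraries 1 and 2, against 11620005 and 11445076 in EGFP positive libraries 1 and 2, so that 3 counts equalled 0.241 to 0.26 CPM, the unit of level used here, which scales counts by TMM-adjusted library size. H2BC11, a histone H2B gene that checks the labels, was at 7.07 and 5.48 CPM in EGFP negative libraries and at 669 and 638 CPM in EGFP positive ones. Of the 8 markers of the cell line, VIM and CAV1 were higher and CD44 lower in EGFP negative cells, and all 8 were detected. The luminal markers ESR1, PGR, CDH1, FOXA1 and TFF1 had at most 3 counts in any library. GATA3 was at 10.1 and 9.34 CPM in EGFP negative libraries and at 11.2 and 10.9 CPM in EGFP positive ones, and was not called by edgeR (adjusted p = 0.516). Summed over 6 adipocyte and hepatocyte markers, the level was 0.0803 and 0 CPM in EGFP negative libraries and 0.606 and 0.26 CPM in EGFP positive ones, with ADIPOQ, LEP, FABP4 and APOA2 at 0 in all. The summed level of 6 endothelial markers was 3.53 and 3.94 CPM in EGFP negative libraries and 1.04 and 1.30 CPM in EGFP positive ones, while CDH5 and ERG were at 0. PECAM1 made up most of it, at 3.13 and 3.69 CPM in EGFP negative libraries and at 0.779 and 0.781 CPM in EGFP positive ones, and was called 4.32-fold higher by edgeR (adjusted p = 0.00149). Sums over 6 leukocyte markers were 1.93 and 2.23 CPM in EGFP negative libraries and 1.47 and 0.608 CPM in EGFP positive ones, and sums over 5 fibroblast markers were under 1 CPM in each library. The part of these traces in the results was not tested. In bulk RNA, a change in the share of cells and a change in RNA per cell cannot be told apart.

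The lipid synthesis genes leaned upward in EGFP negative cells. By edgeR's quasi-likelihood test with Benjamini-Hochberg adjustment over all 16413 tested genes, 15 of the 36 were higher, where 9.4% of all tested genes were higher, and 0 were lower, where 9.46% of all tested genes were lower. In either direction 41.7% of the 36 passed, against 18.9% of all tested genes. The 36 were chosen with earlier results of these data known, so these shares describe the list and do not test it. The median log2 fold change was 0.29 over the 36 genes and -0.0028 over all tested genes. At an unadjusted p under 0.05, 19 of the 36 were higher and 3 lower by edgeR, where 15.3% of all tested genes were higher and 15.7% lower (31% in either direction). At an adjusted p under 0.05, DESeq2 called 13 of the 36 higher and 0 lower, and 2041 of all genes in either direction. By limma-voom 15 of the 36 were higher and 1 lower, and 3072 of all genes were called. Groups did not overlap for 22 genes that were higher and 7 that were lower in EGFP negative cells, 29 genes in all, against 57.4% of all tested genes in either direction, 28.1% higher and 29.3% lower. Together the 36 genes took 0.367% and 0.349% of counts in EGFP negative libraries, against 0.297% and 0.297% in EGFP positive ones. With SCD left out, their summed level was 3392 and 3140 CPM in EGFP negative libraries and 2894 and 2841 CPM in EGFP positive ones. Fold changes below are EGFP negative over EGFP positive, errors of log2 fold changes are standard errors, and adjusted p-values come from this edgeR fit.

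**Figure D1:**
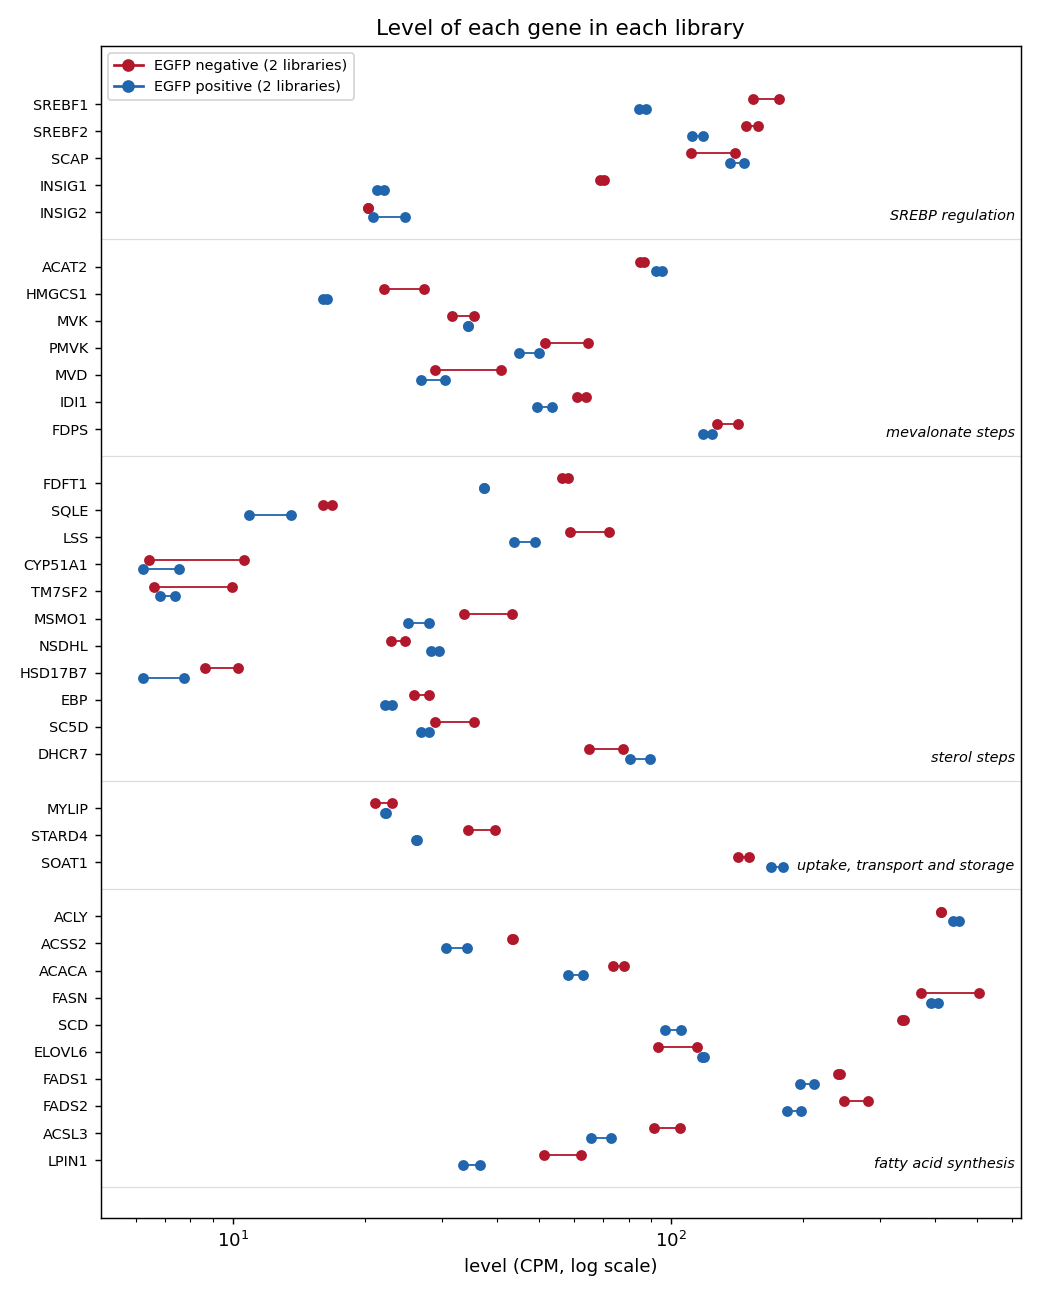
Level in CPM on a log axis of each of the 36 genes, by role, in 2 EGFP negative libraries (red, upper of each pair of lines) and 2 EGFP positive libraries (blue, lower); a line joins the libraries of a group. INSIG1 at 70.2 and 68.9 CPM and SCD at 336 and 340.2 CPM stand farthest to the right of their EGFP positive values, while ACLY, MVK and INSIG2 lie close together.

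Among the 5 genes of SREBP regulation, 3 rose (60% called in either direction, against 18.9% of all tested genes). INSIG1, which retains SCAP and is itself a well-known SREBP target, was at 70.2 and 68.9 CPM in EGFP negative libraries and at 21.3 and 22.1 CPM in EGFP positive ones. The libraries of each group lay within 2 CPM of each other and the groups were far apart, a 3.20-fold rise (log2 fold change 1.68 ± 0.11, adjusted p = 1.09e-07). SREBF1, encoding SREBP1, was at 177 and 153 CPM in EGFP negative libraries and at 87.6 and 84.5 CPM in EGFP positive ones. Both EGFP negative values were above both others, and the gene rose 1.92-fold (log2 fold change 0.94 ± 0.09, adjusted p = 9.16e-06). SREBF2, encoding SREBP2, was at 158 and 148 CPM in EGFP negative libraries and at 118 and 111 CPM in EGFP positive ones, a 1.33-fold rise with no overlap (log2 fold change 0.41 ± 0.09, adjusted p = 0.00396). Without EGFP positive library 2, SREBF2 no longer passed (adjusted p = 0.15).

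The other regulators did not pass. The escort gene SCAP was at 139.5 and 111 CPM in EGFP negative libraries and at 147 and 136 CPM in EGFP positive ones, so the groups overlapped (adjusted p = 0.287). EGFP negative library 2 was the low one, and without EGFP negative library 1 the log2 fold change of SCAP was -0.36. INSIG2, a paralogue of INSIG1 that also retains SCAP, was at 20.3 and 20.3 CPM in EGFP negative libraries and at 20.8 and 24.7 CPM in EGFP positive ones (log2 fold change -0.17 ± 0.14, adjusted p = 0.462). Per kb of exon not shared with another gene, the mean level of INSIG1 was 22.6 CPM in EGFP negative cells and 7.05 CPM in EGFP positive cells. INSIG2 on the same scale was at 5.70 CPM in EGFP negative cells and 6.40 CPM in EGFP positive cells, so the paralogues were near each other in EGFP positive cells and INSIG1 was the more abundant in EGFP negative cells.

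Promoters of the listed genes were searched because the list includes classic SREBP targets, though not every gene on it is one. RefSeq's table on GRCh38.p14 held promoters for 32 of the 36, and the 250 bases before each start were searched on both strands. The sterol element TCACNCCAC, a common core of SREBP binding sites, was found before 1 of the 32 genes and before 1.14% of 10517 tested genes with a promoter in the table. That gene was SREBF2, and its promoter (chr22:41832855-41833104, plus strand) is shown since it holds the element beside a CCAAT box, the letters bound by NF-Y, a partner of SREBP. The E-box TCACGTGA, which SREBP1 can also bind, was found before 1 of 32 genes, INSIG1, and before 2.04% of tested genes. It lay 48 bases before the RefSeq start, inside the span counted as INSIG1 in the deposited tables. The 30 bases shown around it are at chr7:155297811-155297840 on the plus strand. Capitals mark the element and the CCAAT box, read as ATTGG on the other strand, in SREBF2, and the E-box in INSIG1.
SREBF2: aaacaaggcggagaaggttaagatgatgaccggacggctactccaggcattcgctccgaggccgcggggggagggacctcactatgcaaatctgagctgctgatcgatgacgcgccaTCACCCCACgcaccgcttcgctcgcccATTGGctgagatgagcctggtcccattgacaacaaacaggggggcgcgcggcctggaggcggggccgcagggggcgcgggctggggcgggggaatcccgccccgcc
INSIG1: gccgggcaggcTCACGTGAtgcgggccccg

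CCAAT stood before 23 of the 32 genes (71.9%) and before 41.7% of tested genes, and the GC box GGGCGG, bound by SP1, before 31 of the 32 (96.9%) and 74.7% of tested genes. Of the genes called higher with a promoter in the table, 10 of 14 held CCAAT, and of those not called 13 of 18 did. A match is a description of letters and not evidence of binding.

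Of 7 mevalonate steps, 1 rose (14.3% called in either direction, against 18.9% of all tested genes). HMGCS1, the synthase that makes HMG-CoA, was at 22.1 and 27.3 CPM in EGFP negative libraries and at 16.4 and 16.1 CPM in EGFP positive ones. The groups did not overlap, and the rise was 1.52-fold (log2 fold change 0.60 ± 0.15, adjusted p = 0.00982). It missed the threshold without EGFP positive library 1 (adjusted p = 0.0533) or library 2 (0.0687). An antisense gene shared 45.8% of HMGCS1's exon bases, and since the counting ignored strand and set no option for reads on several genes, the level of HMGCS1 is a lower estimate.

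The other mevalonate genes did not pass. ACAT2, the thiolase that starts the route, averaged 86 ± 1.29 CPM in EGFP negative cells and 93.6 ± 2.05 CPM in EGFP positive cells (SD, n = 2 each), with an adjusted p = 0.388 by edgeR. Other genes, mainly TCP1 on the opposite strand, shared 36.3% of its exon bases. The mevalonate kinase gene MVK averaged 33.6 CPM in EGFP negative cells and 34.4 CPM in EGFP positive cells, and the groups overlapped. PMVK, which adds the next phosphate, and IDI1, which isomerises isopentenyl diphosphate, had log2 fold changes of 0.29 ± 0.12 and 0.28 ± 0.10 without overlap between groups (adjusted p = 0.11 and 0.0632). IDI1 was at 61.1 and 63.9 CPM in EGFP negative libraries and at 53.4 and 49.4 CPM in EGFP positive ones, and it passed with upper quartile scaling (adjusted p = 0.0495). The decarboxylase gene MVD was at 40.8 and 29 CPM in EGFP negative libraries and at 30.5 and 26.9 CPM in EGFP positive ones, so its 2 EGFP negative libraries differed more than the groups did. FDPS, which makes farnesyl diphosphate, averaged 135 CPM in EGFP negative cells and 121 CPM in EGFP positive cells (adjusted p = 0.257), and 8 pseudogenes named after it also took reads.

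Of 11 sterol steps, which run from the making of squalene to cholesterol, 3 rose (27.3% called in either direction, against 18.9% of all tested genes). FDFT1, squalene synthase and the first committed step to sterols, was at 58.2 and 56.5 CPM in EGFP negative libraries and at 37.5 and 37.3 CPM in EGFP positive ones. Replicates nearly coincided, and the rise was 1.53-fold (log2 fold change 0.62 ± 0.10, adjusted p = 0.000728). LSS, which closes the rings to lanosterol, was at 72.3 and 58.7 CPM in EGFP negative libraries and at 49 and 43.7 CPM in EGFP positive ones. Its EGFP negative libraries were spread but stayed above the others, with a log2 fold change of 0.50 ± 0.12 (adjusted p = 0.00824), and it missed the threshold without EGFP positive library 2 (0.122). MSMO1, a methyl sterol oxidase, was at 33.7 and 43.3 CPM in EGFP negative libraries and at 25.1 and 28 CPM in EGFP positive ones (log2 fold change 0.53 ± 0.14, adjusted p = 0.0133). There EGFP negative library 2 was the higher, unlike in LSS, and the call was lost without EGFP positive library 1 (adjusted p = 0.123).

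Of the other 8 sterol genes, 6 had a positive and 2 a negative log2 fold change, and these did not pass. SQLE, squalene epoxidase and a rate-controlling step, was at 16.8 and 16 CPM in EGFP negative libraries and at 10.9 and 13.5 CPM in EGFP positive ones, with no overlap (log2 fold change 0.43 ± 0.16, adjusted p = 0.0846). The ketoreductase gene HSD17B7 had 0.44 ± 0.20, at 9.47 CPM in EGFP negative cells and 6.98 CPM in EGFP positive cells. The isomerase gene EBP and the desaturase gene SC5D had log2 fold changes of 0.25 ± 0.13 and 0.23 ± 0.13, also without overlap. The demethylase gene CYP51A1 and the reductase gene TM7SF2 were under 11 CPM in every library and their groups overlapped. CYP51A1 had 78.1% and EBP 57.1% of exon bases shared with other genes, so their counts are also lower estimates, and the copy CYP51A1P2 took more counts (191 and 202 in EGFP negative libraries, 124 and 144 in EGFP positive ones) than CYP51A1 itself (132 and 75 in EGFP negative libraries, 87 and 72 in EGFP positive ones). Whether reads of the gene were placed on its copies was not tested.

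The negative log2 fold changes among the sterol genes were those of NSDHL and DHCR7. NSDHL, a sterol dehydrogenase, was at 22.9 and 24.7 CPM in EGFP negative libraries and at 29.6 and 28.3 CPM in EGFP positive ones (log2 fold change -0.28 ± 0.12, adjusted p = 0.129). DHCR7, the reductase of the last step in one branch, was at 77.6 and 64.8 CPM in EGFP negative libraries and at 89.6 and 80.6 CPM in EGFP positive ones (log2 fold change -0.26 ± 0.11, adjusted p = 0.114). Neither gene's groups overlapped, and the log2 fold change of DHCR7 was -0.40 without EGFP negative library 1. The promoters of MSMO1 and NSDHL are set side by side because MSMO1 rose, NSDHL had a negative value that did not pass, and both hold several CCAAT boxes, in capitals on either strand. MSMO1 is at chr4:165327419-165327668 and NSDHL at chrX:152830813-152830966, both on the plus strand and both shown up to where the counted gene begins.
MSMO1: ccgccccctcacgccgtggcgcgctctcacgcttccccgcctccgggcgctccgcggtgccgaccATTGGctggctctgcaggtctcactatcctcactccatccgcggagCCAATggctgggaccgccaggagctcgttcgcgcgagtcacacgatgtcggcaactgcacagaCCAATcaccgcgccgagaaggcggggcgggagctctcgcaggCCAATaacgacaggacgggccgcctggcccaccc
NSDHL: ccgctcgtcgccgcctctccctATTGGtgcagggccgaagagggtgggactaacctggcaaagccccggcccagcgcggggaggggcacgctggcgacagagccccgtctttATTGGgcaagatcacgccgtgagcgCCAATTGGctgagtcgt

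**Figure D2:**
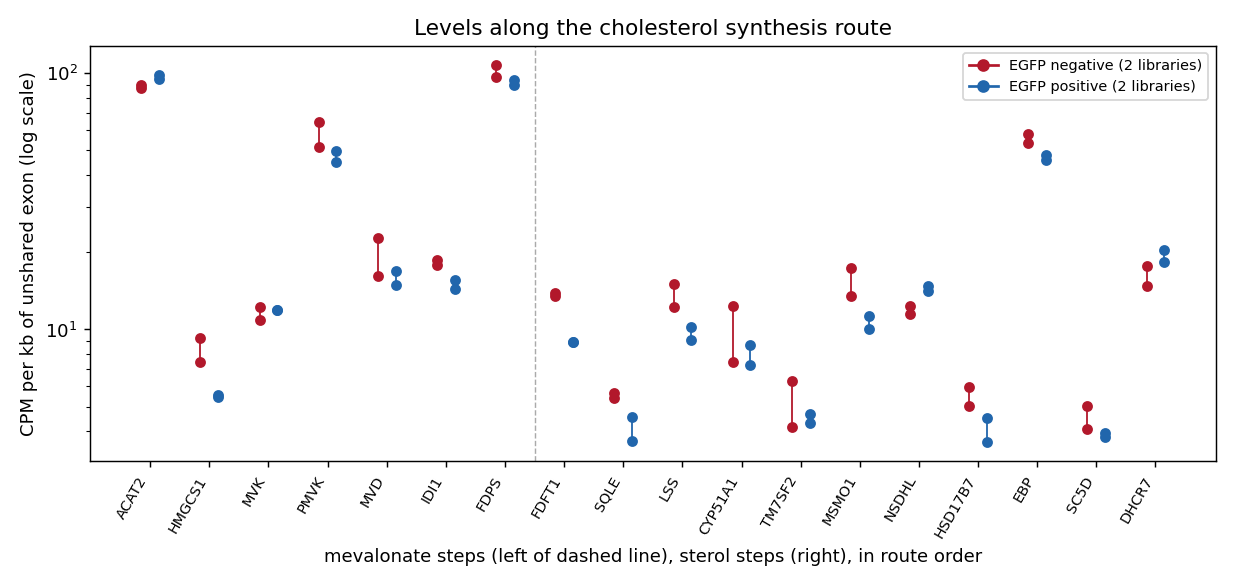
Level per kb of exon not shared with another gene (CPM per kb, log axis) of the 7 mevalonate and 11 sterol genes in route order, with EGFP negative libraries in red on the left of each pair and EGFP positive libraries in blue on the right. HMGCS1, FDFT1, LSS and MSMO1 were called higher, and ACAT2, FDPS, PMVK and EBP stand above the others in both groups.

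Levels along the route were uneven on this per-length scale. FDPS averaged 102 CPM per kb in EGFP negative cells and 91.8 CPM per kb in EGFP positive cells, and ACAT2 88.8 CPM per kb in EGFP negative cells and 96.7 CPM per kb in EGFP positive cells. SC5D was lowest, at 4.55 CPM per kb in EGFP negative cells and 3.87 CPM per kb in EGFP positive cells. SQLE, HSD17B7 and TM7SF2 were also under 6 CPM per kb in both groups. The scale divides by merged exons of all annotated isoforms, so it understates genes with long rarely used exons.

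Of 3 genes of uptake, transport and storage, 1 rose (33.3% called in either direction, against 18.9% of all tested genes). STARD4, which carries cholesterol between membranes and is an SREBP target, was at 34.4 and 39.7 CPM in EGFP negative libraries and at 26.3 and 26.2 CPM in EGFP positive ones. The groups were apart, with a 1.41-fold rise (log2 fold change 0.49 ± 0.12, adjusted p = 0.0103), which missed the threshold without EGFP positive library 1 (0.0877) or library 2 (0.0939). SOAT1, which esterifies cholesterol for storage, was at 142 and 151 CPM in EGFP negative libraries and at 169 and 179.8 CPM in EGFP positive ones. It lay just outside the threshold (log2 fold change -0.25 ± 0.08, adjusted p = 0.0503) and was called lower by limma-voom and with the stricter filter on low counts. Its log2 fold change was -0.21 without EGFP negative library 1 and -0.28 without EGFP negative library 2. MYLIP, a ubiquitin ligase that removes lipoprotein receptors and is induced by liver X receptors, was at 23.1 and 21.1 CPM in EGFP negative libraries and at 22.2 and 22.4 CPM in EGFP positive ones (adjusted p = 0.957).

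Fatty acid genes held the largest single rise and the most calls, with 7 of 10 higher (70% called in either direction, against 18.9% of all tested genes). SCD, the desaturase that makes oleic from stearic acid, was at 336 and 340.2 CPM in EGFP negative libraries and at 96.8 and 105 CPM in EGFP positive ones. The gap between groups was far wider than the spread within them, a 3.35-fold rise (log2 fold change 1.74 ± 0.08, adjusted p = 6.45e-09). Its processed copy SCDP1 took 341 and 307 counts in EGFP negative libraries and 102 and 116 in EGFP positive ones, against 4187 and 3970 counts of SCD in EGFP negative libraries and 1119 and 1212 in EGFP positive ones. Whether SCD reads were placed on the copy was not tested. SCD's promoter (chr10:100346983-100347232, plus strand) is shown as that of the gene with the largest change, with its CCAAT boxes in capitals.
SCD: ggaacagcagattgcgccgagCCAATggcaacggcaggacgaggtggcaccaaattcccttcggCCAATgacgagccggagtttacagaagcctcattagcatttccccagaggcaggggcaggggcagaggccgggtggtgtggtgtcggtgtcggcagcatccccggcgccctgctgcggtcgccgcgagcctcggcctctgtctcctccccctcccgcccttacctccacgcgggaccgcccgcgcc

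The front desaturases FADS1 and FADS2, which make polyunsaturated fatty acids and lie head to head on chromosome 11, both rose. FADS2 was at 281 and 248 CPM in EGFP negative libraries and at 198 and 184 CPM in EGFP positive ones (log2 fold change 0.47 ± 0.09, adjusted p = 0.00167; 0.069 without EGFP positive library 2). FADS1 was at 241 and 243 CPM in EGFP negative libraries and at 197 and 212 CPM in EGFP positive ones. Its groups did not overlap, but it lay just inside the threshold (log2 fold change 0.24 ± 0.08, adjusted p = 0.0499) and lost its call without either EGFP positive library, in DESeq2 and with no filter on low counts. The genes shared 142 exon bases, 1.83% of FADS1's and 3.3% of FADS2's.

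ACSS2, ACACA, ACSL3 and LPIN1 also rose. ACSS2, which makes acetyl-CoA from acetate, was at 43.2 and 43.5 CPM in EGFP negative libraries and at 30.7 and 34.2 CPM in EGFP positive ones (log2 fold change 0.42 ± 0.11, adjusted p = 0.0168). ACACA, the carboxylase that makes malonyl-CoA, was at 78.1 and 73.6 CPM in EGFP negative libraries and at 63.1 and 58.2 CPM in EGFP positive ones (log2 fold change 0.32 ± 0.10, adjusted p = 0.031). Neither gene's groups overlapped, and both lost their call without EGFP positive library 1 (adjusted p = 0.281 and 0.159) or library 2 (0.073 and 0.414). ACACA also lost it in DESeq2 (adjusted p = 0.0705) and with no filter on low counts (0.0672). ACSL3, an acyl-CoA synthetase of lipid droplets, was at 91.5 and 105 CPM in EGFP negative libraries and at 65.6 and 72.9 CPM in EGFP positive ones (log2 fold change 0.50 ± 0.10, adjusted p = 0.00304; 0.0874 without EGFP positive library 1). LPIN1, a phosphatidate phosphatase on the way to triglycerides, was at 62.4 and 51.3 CPM in EGFP negative libraries and at 33.5 and 36.6 CPM in EGFP positive ones, a 1.62-fold rise (log2 fold change 0.70 ± 0.12, adjusted p = 0.000874).

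FASN, ACLY and ELOVL6 did not pass. FASN, fatty acid synthase, was at 503 and 372 CPM in EGFP negative libraries and at 407 and 392 CPM in EGFP positive ones. The EGFP negative libraries lay on either side of the EGFP positive ones (log2 fold change 0.13 ± 0.11, adjusted p = 0.467), so a difference was not resolved here. The log2 fold change of FASN was 0.34 without EGFP negative library 2 and -0.10 without EGFP negative library 1. ACLY, which makes cytosolic acetyl-CoA from citrate, was at 414 and 412 CPM in EGFP negative libraries and at 454 and 439.8 CPM in EGFP positive ones (log2 fold change -0.12 ± 0.07, adjusted p = 0.322). ELOVL6, which elongates palmitate, was at 93.3 and 114 CPM in EGFP negative libraries and at 118 and 119 CPM in EGFP positive ones, also without overlap (log2 fold change -0.19 ± 0.10, adjusted p = 0.231). Per kb of unshared exon, ACLY averaged 98 CPM in EGFP negative cells and 106 CPM in EGFP positive cells, above SCD at 64.5 CPM in EGFP negative cells and 19.3 CPM in EGFP positive cells.

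**Figure D3:**
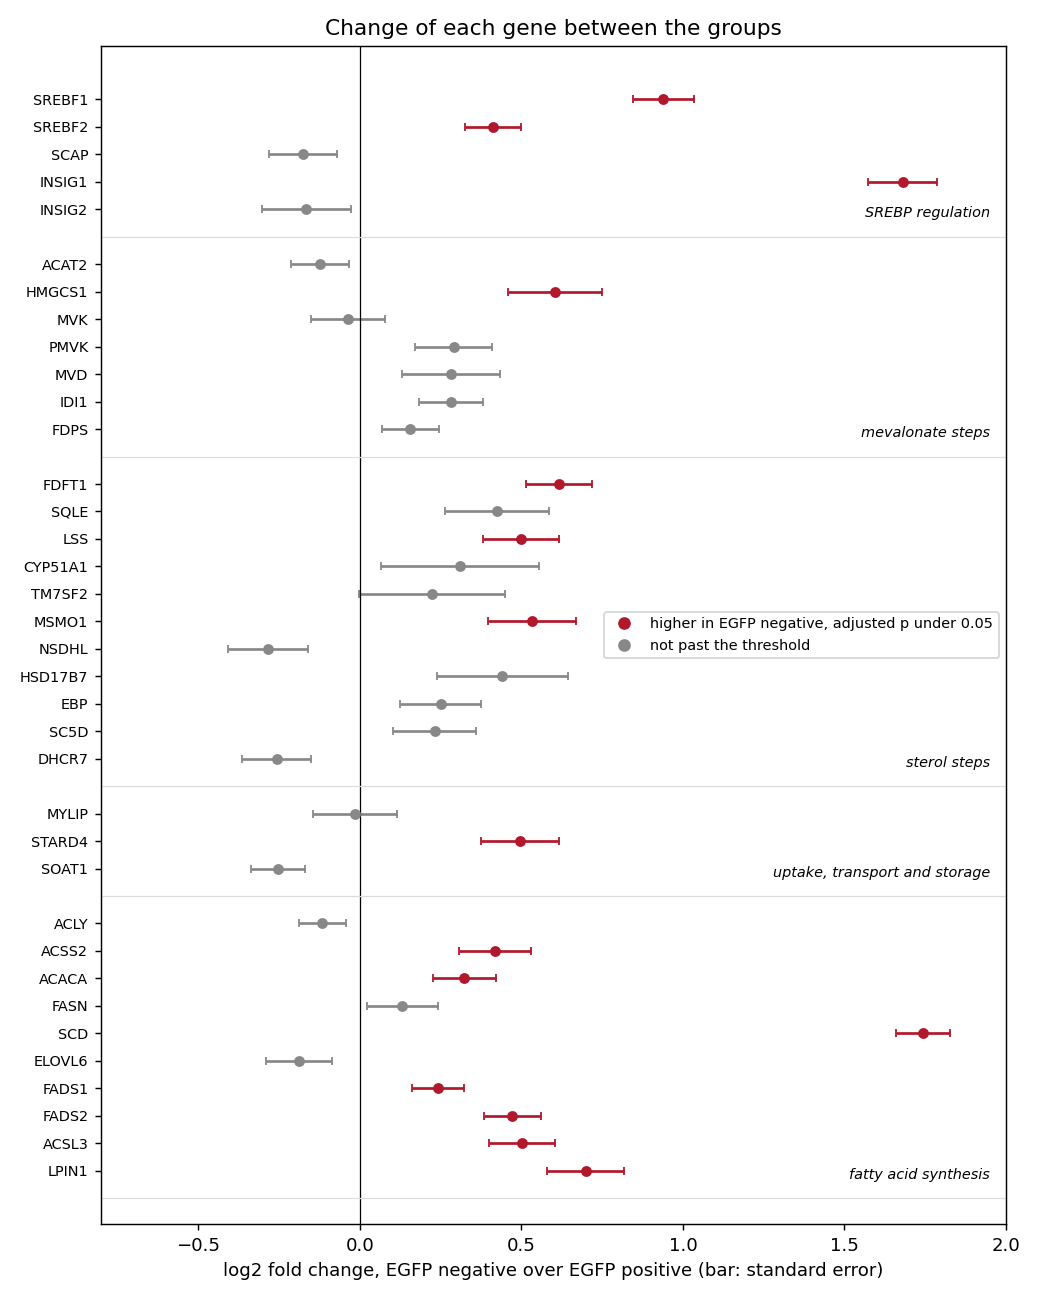
Log2 fold change of each of the 36 genes, EGFP negative over EGFP positive, with its standard error, by role; red points passed the adjusted threshold and grey ones did not. SCD at 1.74 and INSIG1 at 1.68 lie beyond the rest, and the lowest value is NSDHL at -0.28.

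The 15 calls were not equally firm. In a fit without 1 library, spread was measured only in the other group. EGFP positive libraries differed less from each other (chi-square per degree of freedom 2.14) than EGFP negative ones did (6.71). Calls made without an EGFP negative library therefore leave out the wider EGFP negative spread. SREBF1, INSIG1, FDFT1, SCD and LPIN1 passed in all 11 alternative fits. Leaving out EGFP negative library 1 gave 17 higher of the 36 and 4496 called among all genes, and leaving out EGFP negative library 2 gave 23 and 4942. Leaving out EGFP positive library 1 gave 8 and 1499, and EGFP positive library 2 gave 7 and 1452, against 15 and 3095 with all 4 libraries. Genes added to the higher calls without EGFP negative library 2 were PMVK, MVD, IDI1, FDPS, SQLE, CYP51A1, HSD17B7 and FASN, and without EGFP negative library 1 they were IDI1 and SC5D. Lower calls were added too. Without EGFP negative library 2 these were ELOVL6 and SOAT1 (log2 fold changes of -0.33 and -0.28). Without EGFP negative library 1 they were SCAP, DHCR7 and SOAT1 (-0.36, -0.40 and -0.21).

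**Figure D4:**
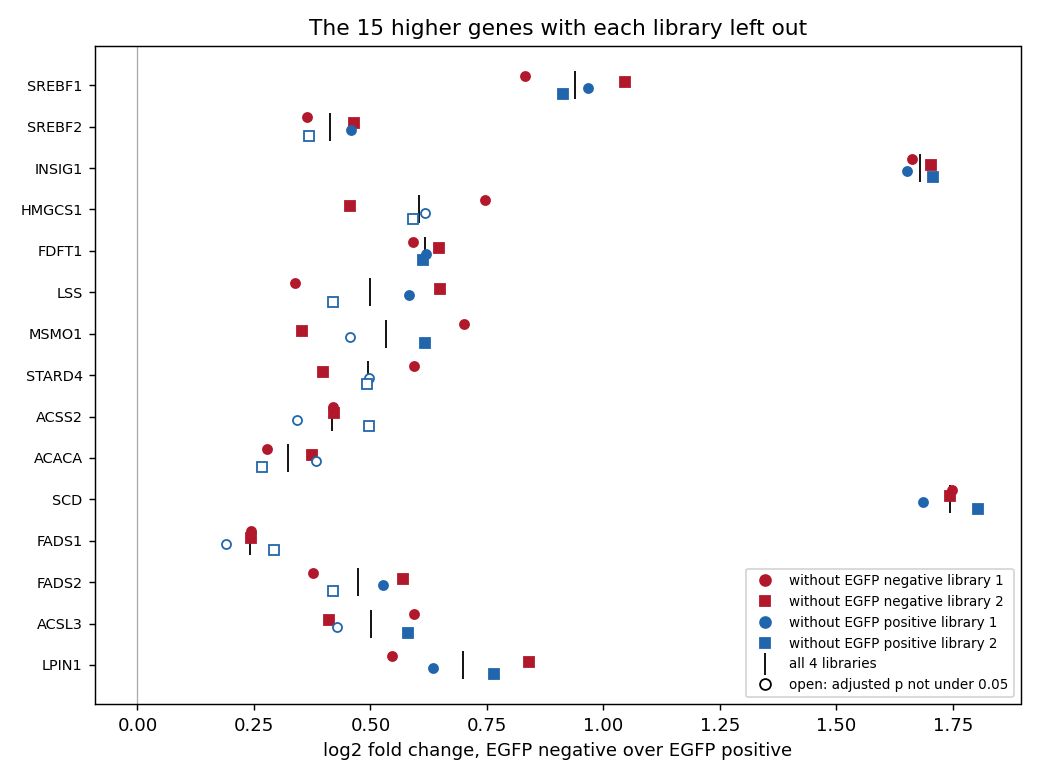
Log2 fold change of the 15 higher genes with each library left out in turn (red, an EGFP negative library; blue, an EGFP positive one) and with all 4 (black tick); open symbols missed the adjusted threshold. All values stayed above 0, and open symbols arose only where an EGFP positive library was left out, so that spread came from the EGFP negative pair alone.

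Around this core, 107 further genes of lipid metabolism were listed by function, with earlier results of these data known. Of the 107, 97 passed the filter on low counts, 17 were higher and 7 lower. That was 24.7% of those tested, against 18.9% of all genes, and their median log2 fold change was 0.04. By group, 20% of the sterol sensing genes and 8.33% of the tested cholesterol transport and efflux genes were called. In sterol sensing, RNF145, a ubiquitin ligase of the SREBP system, was at 91.3 and 89 CPM in EGFP negative libraries and at 56.8 and 60.7 CPM in EGFP positive ones (log2 fold change 0.62 ± 0.09, adjusted p = 0.000358). SPRING1, needed for SREBP cleavage, was lower (-0.33 ± 0.09, adjusted p = 0.0167), and the other 8 genes of that group did not pass. NR1H3, encoding liver X receptor alpha, was at 15.4 and 13.1 CPM in EGFP negative libraries and at 8.56 and 8.16 CPM in EGFP positive ones (log2 fold change 0.77 ± 0.17, adjusted p = 0.00663), the only call among 12 tested genes of cholesterol transport and efflux. Its efflux target ABCG1, named after its values were seen, had at most 3 counts in any library, too few to compare the groups.

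Branches off the route differed in direction. Calls made up 22.2% of tested isoprenoid genes, 14.3% of partners of the sterol steps and 23.5% of further fatty acid synthesis genes. Of all tested genes, 18.9% were called. In the isoprenoid branches DHDDS, for dolichol, was lower (43.3 CPM in EGFP negative cells and 60.3 CPM in EGFP positive cells, adjusted p = 0.00445) and PDSS2, for the ubiquinone tail, higher (18.7 CPM in EGFP negative cells and 13.6 CPM in EGFP positive cells, adjusted p = 0.0464), out of 9. PDSS2 lost its call in DESeq2 (adjusted p = 0.163) and with no filter on low counts (0.095). Of 7 partners of the sterol steps, CYB5A, an electron donor, alone passed and was lower (22 CPM in EGFP negative cells and 33.1 CPM in EGFP positive cells). Further fatty acid synthesis genes had 2 higher and 2 lower of 17 tested. MID1IP1, an activator of acetyl-CoA carboxylase, rose with a log2 fold change of 0.61 ± 0.12, while the elongase gene ELOVL1 fell by 0.48 on the log2 scale and FADS3, next to FADS1 and FADS2 on chromosome 11, fell to 46 CPM in EGFP negative cells, against 81.8 CPM in EGFP positive cells.

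Acyl-CoA synthetases had 4 higher and 1 lower of 10. Calls made up 50% of them, 29.4% of glycerolipid and droplet genes and 26.7% of fatty acid oxidation genes, against 18.9% of all tested genes. ACSL5 was at 158 and 169.9 CPM in EGFP negative libraries and at 89.6 and 87.4 CPM in EGFP positive ones, and ACSS3 averaged 26.7 CPM in EGFP negative cells and 13.5 CPM in EGFP positive cells. ACSL4, which prefers arachidonic acid, was lower (147 CPM in EGFP negative cells and 212 CPM in EGFP positive cells, adjusted p = 0.000942). Glycerolipid and droplet genes had 4 higher and 1 lower of 17, with LPIN2 and the droplet coat gene PLIN3 higher (log2 fold changes of 0.63 ± 0.08 and 0.50 ± 0.09) and the lipase gene MGLL lower (-0.53 ± 0.10). Fatty acid oxidation, the opposing route, had 4 higher of 15, among them ACADS (1.00 ± 0.20), HSD17B4 (0.44 ± 0.10) and ECI1 (0.55 ± 0.12). Without EGFP positive library 1, SPRING1, DHDDS, PDSS2, CYB5A and HSD17B4 missed the threshold (adjusted p of 0.0663 to 0.396). Without EGFP positive library 2, SPRING1, PDSS2, NR1H3, PLIN3, HSD17B4 and ECI1 did (adjusted p of 0.0577 to 0.324).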

How the data were processed

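Libraries were polyA-selected and stranded, per the labels' protocols. The deposited values are raw fragment counts per gene name, made by the authors with featureCounts 2.0.1 on paired reads, per the file headers, over GENCODE 46 basic exons, with no strand option and none for reads on several genes. Which aligner was used is not given in the sources used here. The submitters' processing notes name GRCh37 and hg19, but all 36 genes overlapped their place in GENCODE 29 on GRCh38, the build of all coordinates here; this does not show to which build reads were aligned.

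Genes were kept by filterByExpr (minimum count 10, minimum total 15) and fitted with edgeR 4.0.16 (R 4.3.3; TMM, a single term for group); p-values were adjusted by Benjamini-Hochberg, threshold 0.05, two-sided. An exact permutation of 2 against 2 libraries cannot go below p = 0.33. CPM were computed here. The standard error was the log2 fold change over the root of F. Alternatives used limma 3.58.1 and DESeq2 1.42.0. Scripts were tested on simulated data. Replicates differed beyond sampling noise (chi-square per degree of freedom 6.71 in EGFP negative, 2.14 in EGFP positive). The genes and lists were chosen with earlier results of these data known. All 36 were named. Of the further genes, up to 3 per role with the smallest adjusted p were named. ABCG1 was added after its values were seen, and SLC27A2 because its standard error was the largest among the further genes. FDFT1 and SQLE, like ACAT2 and FASN, had no promoter in the table used. Figures were drawn with matplotlib 3.10.9.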

Additional observations from a re-analysis of the deposited data

How the results depend on the processing

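No gene of the 36, and none of the further lipid genes named with a fold change or test, changed sign in a fit in which it passed. All 36 log2 fold changes kept their sign in 9 of 11 alternatives, and 33 and 34 did without EGFP negative library 1 and library 2. Scaling and filters gave 13 to 16 higher genes, with a median log2 fold change of 0.29 to 0.30. The stricter filter and limma-voom each called 1 gene lower, SOAT1. The number of all genes called was 2041 by DESeq2 and 4704 with the replicate number as a block, and ran from 1452 to 4942 with a library left out. Leaving out a library gave 7 to 23 of the 36 higher and 0 to 3 lower, and 7 to 26 of the further genes higher and 4 to 17 lower. With the replicate block, 18 of the 36 were higher and 2 lower. Those gained were PMVK, IDI1 and SQLE, higher (adjusted p = 0.0127, 0.0117 and 0.0219), and DHCR7 and SOAT1, lower (0.0122 and 0.00434). Same-numbered libraries deviated together only weakly (r = 0.114 across genes, which are not independent replicates), and 2 pairs are too few to show pairing. The largest standard error was 0.24 among the 36, for CYP51A1 with 72 to 132 counts a library, and 0.50 among the further genes, for SLC27A2 with 6 to 14.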
